A study of Mus musculus with 20 samples.

Results

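The transcription factor NRF2, its regulators and a set of its target genes outside glutathione metabolism were followed in mouse retina, in 10 genes: Nfe2l2, Keap1, Bach1, Nqo1, Hmox1, Osgin1, Me1, G6pdx, Pgd and Abcc1. They are 10 of the 35006 genes in each count file, were taken by name, and all 10 passed the expression filter in each comparison. Polyadenylated RNA was sequenced from 1 retina of each of 20 C57BL/6J mice, an inbred laboratory strain. Of these, 4 were young controls, 6 young mice under NACET, 4 old controls and 6 old mice under NACET. NACET is the ethyl ester of N-acetyl-L-cysteine, a form of this cysteine donor that enters cells readily. Mice drank it in their water for 5 days at a daily dose of 50 mg/kg, and the study asked whether it acts on the NRF2 pathway of the aging retina. By the labels, young controls were 119 days old, and young NACET mice 129 days (4 mice) or 119 days (2 mice). Old controls were 668 days old, and old NACET mice 668, 581 or 574 days, with 2 mice at each age. Of the young mice, 2 controls and 2 under NACET were labelled female, all other mice were labelled male, and all were wild type. The methods of the study speak of male mice only, and for young NACET replicate 6 the title gives 119 days and the batch tag 129 days.

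Nfe2l2 encodes NRF2, a basic leucine zipper factor that pairs with small MAF proteins on antioxidant response elements. In resting cells KEAP1 holds NRF2 for ubiquitination by a CUL3 ligase, and electrophiles or oxidants that modify KEAP1 cysteines let NRF2 accumulate, so that the factor is controlled largely at the protein level. BACH1 occupies the same elements as a repressor until heme displaces it. Among the targets, Nqo1 reduces quinones, Hmox1 degrades heme, Osgin1 is an oxidative stress response gene, Me1, G6pdx and Pgd supply NADPH in the cytosol, and Abcc1 exports conjugated xenobiotics and leukotrienes.

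Libraries held 17.7 to 31.1 M gene counts (M, 1000000), and levels are given as CPM, counts per M of the normalized library. Markers of rods, the most abundant cell of the mouse retina, summed to 60841 to 100196 CPM. Several libraries stood apart. Old NACET replicate 1 had 10987 CPM over 10 lens markers, against at most 22.0 CPM in the other 19 libraries, and all 10 were highest there. Old control replicate 4, labelled male, expressed Xist, the RNA of the inactive X chromosome, as did only the 4 libraries labelled female. Old control replicate 2 had 91.3 CPM over 7 blood markers, against at most 21.7 CPM elsewhere, with 6 of the 7 highest there. Its 10 corneal markers summed to 603 CPM, but young NACET replicates 4, 5 and 3 also had 526, 291 and 218 CPM. Between NACET and control in old mice, 8 genes in place of 90 were called without old control replicate 2. The count also fell without other single libraries, for example to 12 without old NACET replicate 3. Leaving out any 1 of the 10 libraries gave 8 to 110. Results of members that rest on the libraries set out here are given with and without them.

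The 10 genes differed widely in level once scaled by the length of their exons. Over 20 libraries, the level per kb of exon was 32.1 ± 2.84 CPM (SD) for Me1 and 29.7 ± 2.50 for G6pdx, followed by 10.6 ± 0.510 for Keap1, 9.24 ± 0.637 for Pgd, 7.17 ± 0.515 for Nfe2l2, 6.11 ± 0.464 for Abcc1 and 4.09 ± 0.398 for Bach1. The genes usually read as reporters of NRF2 activity were the lowest: 2.51 ± 3.80 CPM per kb for Hmox1, 1.99 ± 0.443 for Nqo1 and 0.362 ± 0.113 for Osgin1. Most steps of this order were kept in at least 19 of 20 libraries. The exceptions were Me1 over G6pdx, in 16 of 20, and Hmox1 over Nqo1, in 7 of 20, where the mean of Hmox1 was carried by a single library. Lengths hold all exon bases, of which 13.6% in G6pdx, 11.4% in Keap1 and 0.839% in Me1 lie opposite exons of another gene. Reads there may go uncounted, so the order of Me1 and G6pdx is uncertain and Keap1 may be understated. Per kb, Nfe2l2 stood at 0.707 ± 0.0641 (SD, n = 4) of Keap1 in young controls and 0.677 ± 0.0831 (n = 4) in old controls, and at 0.689 ± 0.0339 and 0.655 ± 0.0421 (n = 6 each) in young and old NACET mice. The ranges of all groups overlap.

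**Figure D1:**
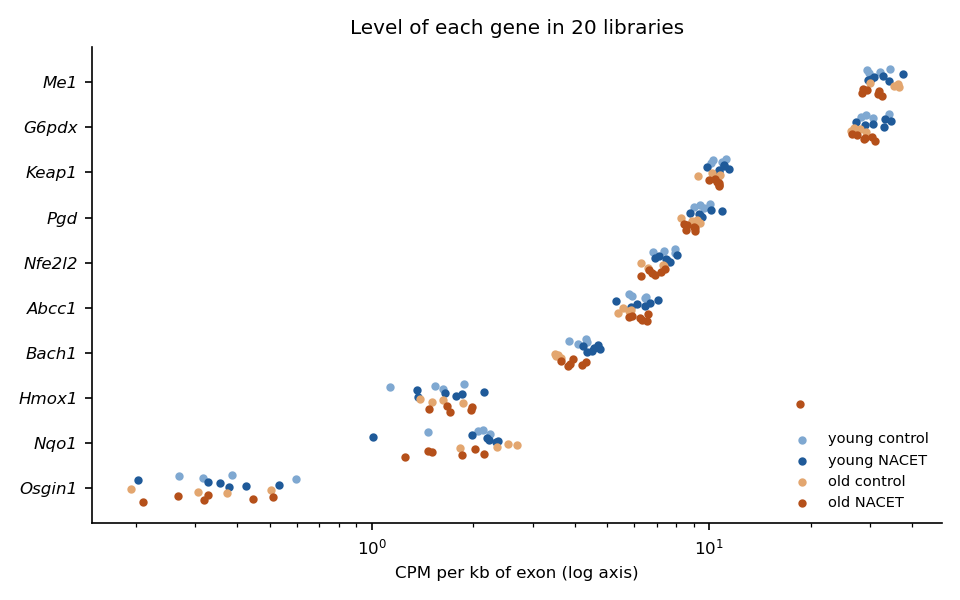
Level of each gene as CPM per kb of exon (log axis), with 1 point per library, colored by group, in 20 libraries. The NADPH enzymes Me1 and G6pdx lie at 26.4 to 37.6 CPM per kb and Osgin1 at 0.194 to 0.598, and the single Hmox1 point at 18.6 is old NACET replicate 1.

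Most genes varied more between mice than counting error gives. The 7 genes above 20 CPM had a coefficient of variation within groups of 2.08% to 10.1%, where counting alone gives 1.86% to 4.42%. Nqo1, Hmox1 and Osgin1 varied by 12.8% to 37.6% within groups, leaving out Hmox1 in old NACET mice, and counting alone gives 10.8% to 22.5%. Osgin1 rested on 10 to 42 counts per library and Nqo1 on 27 to 131.

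To show which of the 10 promoters carry the core letters of an antioxidant response element, TGACNNNGC was searched on both strands of RefSeq promoter windows (GRCm38.p6, 250 bases before to 50 after each start). RefSeq windows were at hand for 8 of the 10 genes, and 4 of them held a match, as did 14.0% of 27025 genes with a window. By window, 4 of the 10 windows of these genes matched, beside 12.4% of 32851, and Me1 and Pgd each also had a window without one. The matches are shown 5′ to 3′ with the searched letters in capitals and 8 flanking bases on each side.
Nfe2l2, chr2:75704887-75704911, gene strand, at -240 from the start: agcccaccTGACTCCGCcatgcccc
Me1, chr9:86695904-86695928, gene strand, at -6: tgccgccgTGACTCAGCgcttctcg
G6pdx, chrX:74428921-74428945, other strand, at -57: gtgtgcttTGACTGAGCtgacccgc
Pgd, chr4:149166063-149166087, gene strand, at 4: ttcagagcTGACATTGCactgatcg
These are Nfe2l2 itself and the 3 NADPH enzymes. Keap1, Bach1, Nqo1 and Osgin1 had no match in these windows, which cover little of the regulatory sequence of a gene, and binding was not measured.

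Neither age nor NACET gave a difference in these genes that passed the test: none of the 10 was called in any of the 5 comparisons at an adjusted p under 0.05 by edgeR's quasi-likelihood test over all genes. Between old and young controls 1.42% of 16484 genes tested were called, between NACET and control in old mice 0.543% of 16562, between NACET and control in young mice 0.00% of 16588, and between old and young mice under NACET 4.88% of 16276. The interaction, the NACET effect in old mice minus that in young mice, called 0.00% of 16993 genes. DESeq2 called Bach1 between old and young mice under NACET and no other member in any comparison, but it gave Hmox1 no test there, for NACET in old mice or in the interaction.

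At an unadjusted p under 0.05 the counts were 1, 4, 0 and 3 of the 10 genes in those 4 comparisons and 1 in the interaction, where 16.3%, 14.4%, 4.36%, 21.1% and 6.19% of all genes passed. Bach1 was the gene between the controls. In old mice under NACET the genes were Bach1 and Abcc1, with positive values, and Nqo1 and Me1, with negative ones. Between old and young mice under NACET they were Bach1, Hmox1 and Pgd, and in the interaction Me1. The comparison of old with young controls and that of NACET with control in old mice share the same 4 old controls, so that a low or high value there enters both with opposite sign. The old NACET mice of 581 and 574 days, 2 each, had ages and batch tags that no old control had. In those mice NACET cannot be told apart from age and batch tag.

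**Figure D2:**
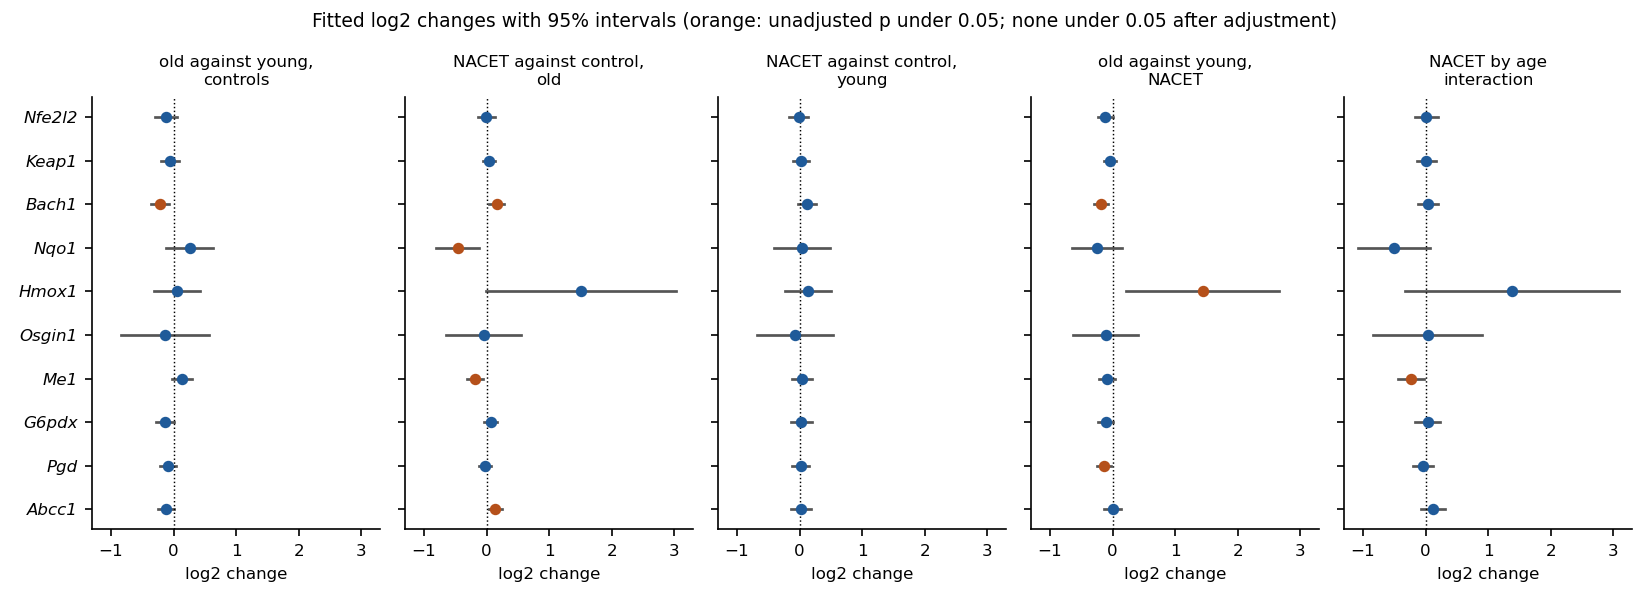
Fitted log2 change (points) and 95% interval (lines) of the 10 genes in 5 comparisons, on a common axis. Orange points have an unadjusted p under 0.05. Points of the 7 more highly expressed genes lie close to 0, and the widest intervals are those of Hmox1, Osgin1 and Nqo1.

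The level of Nfe2l2 (mm9 chr2:75513570-75542698, minus strand) lay in one range in the 4 groups. Young controls had 30.1, 27.9, 25.9 and 30.2 CPM and old controls 23.8, 27.8, 27.9 and 25.1 CPM. Under NACET, 6 young mice ranged from 26.3 to 30.5 CPM with a median of 28.4, and 6 old mice from 23.9 to 28.1 with a median of 26.0. All groups overlap. The log2 change under NACET was -0.0050 ± 0.063 (SE) in old mice, with a 95% interval of -0.14 to 0.13, and -0.016 ± 0.069 in young mice, with an interval of -0.16 to 0.13, and larger changes of the message lie outside these intervals. Old against young controls differed by -0.12 ± 0.079 (adjusted p = 0.483) and old against young NACET mice by -0.11 ± 0.054 (adjusted p = 0.239).

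Keap1 (mm9 chr9:21034174-21043776, minus strand), the adaptor that presents NRF2 to its ubiquitin ligase, measured 50.2, 45.9, 48.8 and 45.4 CPM in young controls and 45.6, 48.2, 41.4 and 47.6 CPM in old controls. Young NACET mice ranged from 44.0 to 51.2 CPM (median 48.7) and old NACET mice from 44.8 to 47.8 CPM (median 47.5). The groups overlap throughout. The log2 change under NACET was 0.036 ± 0.047 (SE; interval -0.063 to 0.14) in old and 0.019 ± 0.060 (interval -0.11 to 0.15) in young mice. Of the exon bases of Keap1, 510 (11.4%) lie opposite exons of Gm16754, which had 42 to 134 counts against 761 to 1507 for Keap1, and reads there cannot be told apart because counting ignored strand.

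Bach1 (mm9 chr16:87699190-87733591, plus strand), the heme-sensing repressor of NRF2 targets, had the smallest adjusted p of the 10 genes. Old controls had 21.5, 22.0, 21.7 and 22.6 CPM, all below the young controls at 26.8, 23.7, 26.8 and 25.2 CPM. Groups that do not overlap in this way were found for 10.3% of genes in this comparison. Bach1 was the 1 member of which this held, and with these TMM-scaled CPM it held for no member in the other comparisons of 2 groups, where it held for 3.75% of genes for NACET in old mice, 0.784% for NACET in young mice and 3.35% between old and young mice under NACET. The means were 25.6 ± 1.47 CPM (SD, n = 4) in young and 22.0 ± 0.457 CPM (n = 4) in old controls, and the log2 difference was -0.22 ± 0.068 (SE) with an adjusted p of 0.139. The coefficient of variation of Bach1 in old controls was 2.08%, where counting alone gives 4.42%. These values thus lay closer together than counting error gives on average. Without old control replicate 4 the change was -0.23 (adjusted p = 0.238), and without old control replicate 2 it was -0.22 (adjusted p = 0.288). Other cell markers differed with age in these libraries: those of microglia summed to 27.8 to 39.1 CPM in young and 41.0 to 46.2 CPM in old controls, and those of rods to 78759 to 100196 and 66546 to 84589 CPM. Their part in the Bach1 level was not tested.

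NACET mice of either age had higher mean Bach1 than controls of the same age, with neither difference passing the test. Young NACET mice ranged from 26.1 to 29.3 CPM with a median of 28.0, and old NACET mice from 22.4 to 26.7 CPM with a median of 24.3. Only the lowest old NACET mouse, at 22.4 CPM, lay within the range of the old controls. This turns on the scaling: without TMM factors old NACET mice had 22.8 to 26.8 CPM and old controls 21.8 to 22.6 CPM, which do not overlap, as held for 3.57% of genes. The log2 change was 0.16 ± 0.058 (SE; adjusted p = 0.217) in old mice and 0.12 ± 0.065 (adjusted p = 1.00) in young mice, and the interaction was 0.037 ± 0.078. In old mice it was 0.16 without old NACET replicate 1, 0.16 without old control replicate 2, 0.17 without old control replicate 4 and 0.10 among the 668-day mice alone, of which 2 were under NACET, old NACET replicate 1 among them.

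Between old and young mice under NACET, Bach1 differed by -0.18 ± 0.054 (SE), with means of 24.6 ± 1.58 CPM (SD, n = 6) and 27.9 ± 1.22 CPM (n = 6) and ranges that overlap. The adjusted p was 0.0604 by edgeR and 0.0304 by DESeq2. Of 20 alternatives 16 did not call it, with adjusted p of 0.0527 to 0.125, among them labelled sex as a covariate (0.0656), the replicate number as a block (0.115) and leaving out old NACET replicate 1 (0.119). Beside DESeq2, it was called in a fit of all 4 groups (0.0305), without young NACET replicate 2 (0.0461) and without old NACET replicate 3 (0.0410). Rod markers summed to 60841 to 74080 CPM in old and 72439 to 99759 CPM in young NACET mice, and microglial markers to 40.4 to 50.4 and 28.5 to 41.1 CPM, and their part was not tested. These libraries are distinct from the controls, so this age difference and that between the controls rest on separate mice: -0.22 in controls and -0.18 under NACET. As the RNA comes from whole retina, fewer cells of a type and less RNA per cell cannot be told apart.

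**Figure D3:**
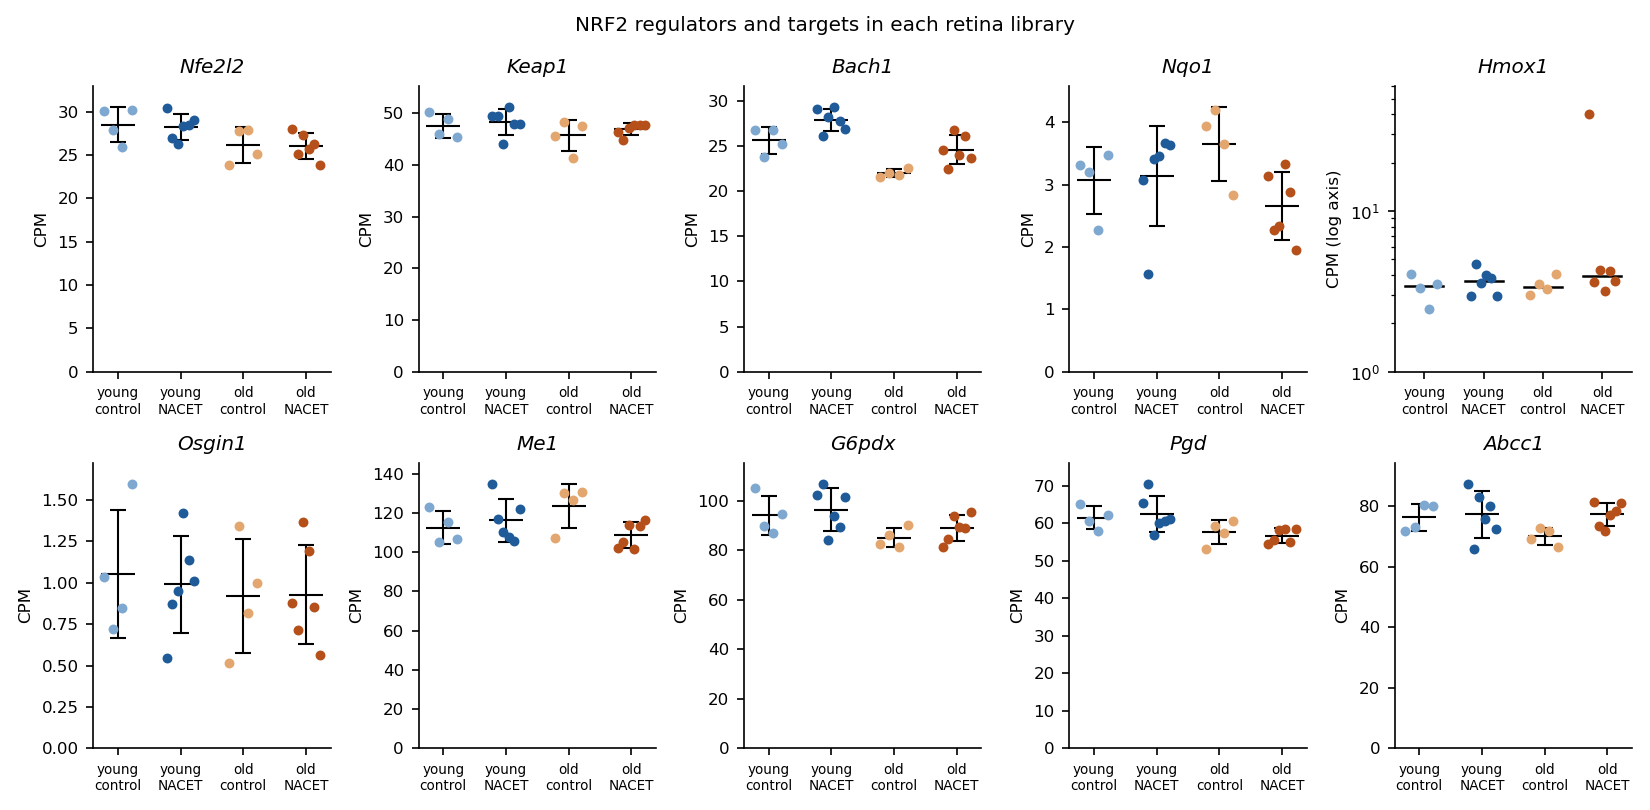
CPM of the 10 genes in each library by group, with the mean and SD as bars, or the median for Hmox1, which is on a log axis. Old controls lie below young controls in Bach1 (21.5 to 22.6 against 23.7 to 26.8 CPM), and a single old NACET library stands at 40.3 CPM of Hmox1.

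Nqo1 (mm9 chr8:109912125-109927106, minus strand), the quinone reductase most used to report NRF2 activity, was low in retina, and its mean in old mice was lower under NACET. Old controls had 3.94, 4.19, 3.65 and 2.83 CPM, and old NACET mice 3.14, 2.28, 2.34, 3.33, 2.89 and 1.95 CPM. The 3 highest old controls lay above every old NACET mouse, and the lowest old control lay among them. Means were 3.65 ± 0.590 CPM (SD, n = 4) and 2.66 ± 0.546 CPM (n = 6), a log2 change of -0.46 ± 0.16 (SE; interval -0.81 to -0.11) with an adjusted p of 0.209. Markers of retinal pigment epithelium summed to 158, 225, 154 and 99.3 CPM in these old controls, in the order given, and to 34.7 to 117 CPM in old NACET mice. In young mice they summed to 42.4 to 261 CPM in controls and 100 to 196 CPM under NACET. Their part in the Nqo1 level was not tested.

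This negative difference in Nqo1 was -0.52 without old NACET replicate 1, -0.38 without old control replicate 2, -0.57 without old control replicate 4 and -0.42 among the 668-day mice alone. In young mice, controls had 3.31, 3.21, 2.28 and 3.48 CPM, and NACET mice 1.57 to 3.67 CPM with a median of 3.44. The young groups overlap, and the log2 change was 0.038 ± 0.21 (adjusted p = 1.00), or 0.17 without young NACET replicate 2, the library at 1.57 CPM. Old and young controls differed by 0.26 ± 0.17 (adjusted p = 0.501). The interaction was -0.50 ± 0.28 (adjusted p = 0.833), so that a difference in the NACET effect between ages was not shown.

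Hmox1 (mm9 chr8:77617490-77624495, plus strand), the inducible heme oxygenase, was at a low level in all libraries but 1. Old NACET replicate 1 had 871 counts, or 40.3 CPM, and the other 19 libraries 53 to 110 counts, or 2.46 to 4.66 CPM with a median of 3.56. The library stood 8.64-fold above the next. The other 5 old NACET mice had 3.61, 4.29, 3.19, 4.26 and 3.68 CPM, a mean of 3.81 ± 0.468 (SD, n = 5), which overlaps the old controls at 3.00, 3.52, 3.27 and 4.04 CPM. With all libraries, the log2 change in old mice under NACET was 1.51 ± 0.71 (SE; adjusted p = 0.349), and without that library 0.13 (adjusted p = 0.698). Between old and young NACET mice it was 1.44 ± 0.58 (adjusted p = 0.166) with and 0.058 (adjusted p = 0.872) without it, and the interaction was 1.38 ± 0.82 (adjusted p = 0.874) with and -0.0030 (adjusted p = 1.00) without it.

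The same library was unusual in other tissue markers. Summed lens markers were 0.671 to 2.16 CPM in young controls, 0.634 to 1.40 in young NACET mice, 1.14 to 22.0 in old controls and 0.586 to 2.47 CPM in the other old NACET mice, and Crygd, a gamma crystallin, was at 0 in all 19 of these libraries. Old NACET replicate 1 had 4742 CPM of Cryaa, the alpha A crystallin of the lens, against at most 12.2 CPM elsewhere, and 3733 CPM of Crybb2, a beta crystallin, against at most 6.38 CPM. Its summed markers of reactive gliosis were the highest of 20 libraries, at 466 CPM against 383 in the next, with 9 of 12 genes highest there. Inducible stress genes summed to 380 CPM against 357 in the next, with 3 of 12 highest. Its sums for Muller glia (3516 CPM, next 3494), microglia (50.4, next 49.8), rods (60841, next 63493) and cones (1596, next 1646) were at the end of the range but close to those of other libraries. Gfap, the intermediate filament of reactive glia, was 49.0 CPM there and 14.1 to 40.8 CPM elsewhere, and Vim, an intermediate filament of Muller glia and lens, was 268 CPM against 83.8 to 99.7 CPM. Vim is part of the Muller sum, of whose 8 markers 2 were highest there: Vim and Aqp4 (134.5 CPM, at most 134.2 elsewhere). No other member was highest in this library: Abcc1 ranked 3 of 20, and Me1, G6pdx and Pgd each ranked 19 of 20. The part of lens tissue or glial reaction in the Hmox1 level was not tested.

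**Figure D4:**
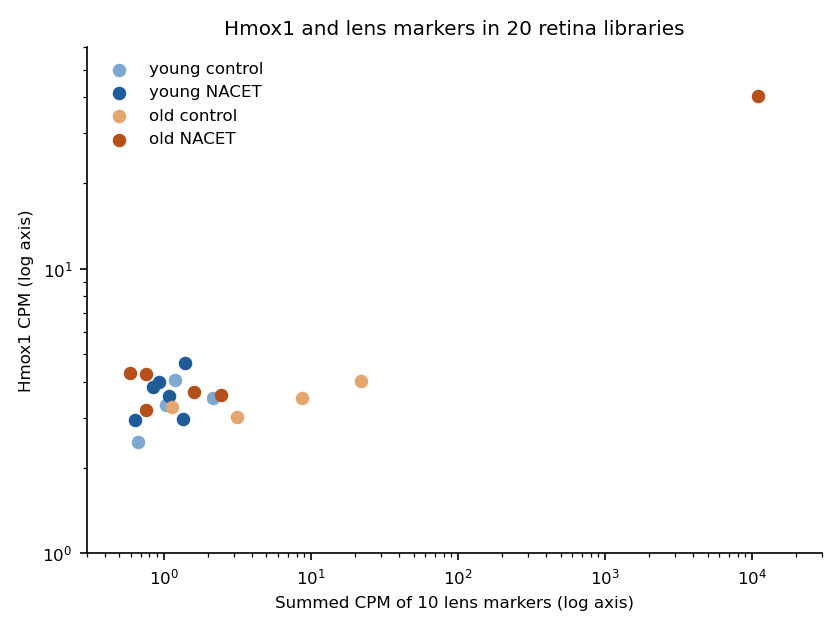
Hmox1 CPM against the summed CPM of 10 lens markers in 20 libraries, both on log axes, with 1 point per library colored by group. The point at the upper right is old NACET replicate 1, at 40.3 CPM of Hmox1 and 10987 CPM of lens markers. The other 19 lie between 2.46 and 4.66 CPM of Hmox1.

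Osgin1 (mm9 chr8:121958024-121970156, plus strand), an NRF2-responsive growth inhibitor, was the lowest of the 10 genes. It ranged from 0.518 to 1.60 CPM over 20 libraries, with group means between 0.920 and 1.05 CPM. All groups overlap, and log2 changes were between -0.14 and 0.035 in the 5 comparisons. Intervals were wide, for example -0.64 to 0.56 for NACET in old mice, and its coefficient of variation within groups was 29.5% to 37.6%, where counting alone gives 21.0% to 22.5%.

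Among the enzymes that supply cytosolic NADPH for reduction, Me1 and G6pdx were the most highly expressed members, and Pgd lay below Keap1 per kb of exon. Me1 (mm9 chr9:86474970-86589947, minus strand), cytosolic malic enzyme, had 107, 130, 127 and 131 CPM in old controls and 102, 105, 114, 102, 113 and 117 CPM in old NACET mice. A single old control lay within the range of the old NACET mice and the other 3 above it. The log2 change was -0.19 ± 0.060 (SE; interval -0.31 to -0.058), with an adjusted p of 0.170. It was -0.17 without old NACET replicate 1, -0.16 without old control replicate 2, -0.16 without old control replicate 4 and -0.25 among the 668-day mice alone. Rod markers summed to 66546, 82305, 73792 and 84589 CPM in these old controls, in the order given, and to 60841 to 74080 CPM in old NACET mice. In young mice they summed to 78759 to 100196 CPM in controls and 72439 to 99759 CPM under NACET. Their part in the Me1 level was not tested.

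In young mice Me1 ran from 105 to 123 CPM in 4 controls and from 106 to 135 CPM in 6 NACET mice, with a log2 change of 0.044 ± 0.074 (adjusted p = 1.00). The interaction was -0.23 ± 0.10 (SE; interval -0.44 to -0.025), with an adjusted p of 0.727. Old and young controls differed by 0.14 ± 0.074 (adjusted p = 0.376), which shares the old controls with the NACET comparison in old mice.

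G6pdx (mm9 chrX:71654822-71674533, minus strand) and Pgd (mm9 chr4:148524100-148540880, minus strand) encode the 2 dehydrogenases of the oxidative pentose phosphate pathway. G6pdx means were 94.1 ± 7.93 CPM (SD, n = 4) in young and 85.0 ± 3.89 CPM (n = 4) in old controls, and 96.3 ± 8.75 and 89.0 ± 5.35 CPM (n = 6 each) in young and old NACET mice. Pgd means were 61.5 ± 2.95 and 57.6 ± 3.18 CPM in the controls and 62.4 ± 4.82 and 56.7 ± 1.94 CPM under NACET, in the same order. In both genes the old groups had the lower means, and all groups overlap. Old against young controls differed by -0.14 ± 0.065 (adjusted p = 0.312) in G6pdx and by -0.090 ± 0.060 (adjusted p = 0.493) in Pgd. Under NACET the age differences were -0.11 ± 0.059 (adjusted p = 0.298) and -0.14 ± 0.050 (adjusted p = 0.128).

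The differences between NACET and control were small in both enzymes. In old mice the log2 change was 0.065 ± 0.050 (SE) for G6pdx and -0.024 ± 0.044 for Pgd, and in young mice 0.031 ± 0.077 and 0.018 ± 0.066. Over 20 libraries, which differ also in group and depth, log2 levels of G6pdx and Pgd had a Pearson r of 0.86, the highest of the 45 pairs among the 10 genes, followed by 0.66 for Keap1 and G6pdx. The lowest was -0.35, for Nqo1 and G6pdx. Of the exon bases of G6pdx, 418 (13.6%) lie opposite exons of Ikbkg, which had 1431 to 3037 counts, so that its reads cannot be separated by strand, and the near-identical G6pd2 was listed with 78 to 160 counts against 1495 to 2694 for G6pdx.

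Abcc1 (mm9 chr16:14361651-14475830, plus strand), the multidrug resistance protein that exports glutathione conjugates, had 69.0, 72.7, 71.8 and 66.4 CPM in old controls and 81.4, 73.3, 71.8, 77.0, 78.4 and 81.1 CPM in old NACET mice. A single old NACET mouse lay within the range of the controls and the other 5 above it. The log2 change was 0.14 ± 0.047 (SE; interval 0.041 to 0.24) with an adjusted p of 0.182, and was 0.13 without old NACET replicate 1, 0.16 without old control replicate 2, 0.12 without old control replicate 4 and 0.15 among the 668-day mice alone. In young mice, controls ranged from 71.7 to 80.3 CPM and NACET mice from 65.6 to 87.3 CPM, with a log2 change of 0.016 ± 0.075 (adjusted p = 1.00). Old and young controls differed by -0.12 ± 0.059 (adjusted p = 0.333).

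In young mice no member differed between NACET and control by the test. None of the 10 genes differed by more than 0.13 on the log2 scale, none had an unadjusted p under 0.05, and for the 7 genes above 20 CPM the 95% intervals stayed between -0.16 and 0.26. Of the 6 young NACET mice, 5 carry a batch tag of 129 days that no young control carries. With that tag as a covariate, the NACET term rests on the 1 NACET mouse without it, and the change was 0.11 for Bach1, 0.25 for Nqo1, 0.20 for Hmox1, -0.095 for Me1 and -0.080 for G6pdx, with all adjusted p at 1.00.

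Other genes of the pathway were read from 3 lists. Partners of NRF2 and genes of its degradation numbered 18, of which 17 were tested. Between the controls 1 of them was called, and lower in old mice, where 1.42% of all genes were called. This was Crebbp, the histone acetyltransferase CBP, a coactivator of NRF2, at 71.6 ± 3.25 CPM (SD, n = 4) in old and 81.5 ± 5.03 CPM (n = 4) in young controls. Its log2 change was -0.28 ± 0.062 (SE; adjusted p = 0.0482), and the call held without young control replicate 1 but was lost without any other single library of the comparison. It was also lost with labelled sex as a covariate (adjusted p = 0.176), among labelled males only (0.227) and with the replicate number as a block (0.113), and 2 of the young and none of the old controls are labelled female. Cul3, the scaffold of the ligase that uses KEAP1, was at 0.29 ± 0.073 (adjusted p = 0.0753). The median log2 change of the list was -0.042, beside -0.0068 over all genes tested.

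Under NACET, 2 of the 17 partner genes were lower in old than in young mice, where 4.88% of all genes were called in either direction. Mafg, a small MAF partner of NRF2, differed by -0.19 ± 0.051 (SE; adjusted p = 0.0453), and Dpp3, a peptidase that binds KEAP1, by -0.21 ± 0.054 (adjusted p = 0.0349). The Mafg call was lost without young NACET replicate 1, 3, 4 or 5 or old NACET replicate 1, 2, 3, 5 or 6, and the Dpp3 call without young NACET replicate 1, 2 or 4 or old NACET replicate 1, 2, 3, 4 or 5. The Mafg call was also lost with labelled sex as a covariate (adjusted p = 0.0930), among labelled males only (0.0684), with no filter on low counts (0.0516) and with the replicate number as a block (0.113), and the Dpp3 call with that block (0.106). No partner gene was called for NACET in either age, by edgeR, where 2 were at an unadjusted p under 0.05 in old and 1 in young mice. Medians were -0.019 and -0.0078, beside 0.0020 and -0.0045 over all genes.

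NRF2 targets of glutathione and thioredoxin metabolism numbered 22, of which 18 were tested, and none was called by edgeR in any comparison. In old mice under NACET 6 had an unadjusted p under 0.05, 4 with positive and 2 with negative values, where 14.4% of all genes passed. The median was 0.073 beside 0.0020 over all genes. Prdx6, a peroxiredoxin, was at 0.16 ± 0.050 (SE; adjusted p = 0.156) and Gsta4, a glutathione transferase that detoxifies lipid aldehydes, at -0.83 ± 0.27 (adjusted p = 0.173). Gsta4 was 30.8 ± 21.2 CPM (SD, n = 4) in old controls and 17.6 ± 0.891 CPM (n = 6) in old NACET mice. Its old controls thus spread widely, and its change was not fitted without single libraries, old control replicate 2 among them. Corneal markers summed to 15.7 to 603 CPM in old controls and 5.20 to 31.7 CPM in old NACET mice. Their part in the Gsta4 level was not tested. Gclm, the modifier subunit of glutamate cysteine ligase, was at 0.19 ± 0.066 between old and young controls (adjusted p = 0.187). In that comparison 3 genes of the list had an unadjusted p under 0.05, all with positive values, beside 16.3% of all genes. Slc7a11, the cystine transporter, was at 0.41 ± 0.15 between old and young NACET mice (adjusted p = 0.136).

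The other NRF2 targets numbered 28, of which 24 to 26 were tested. None was called by edgeR for age in controls, for NACET in old or young mice or in the interaction. In these, 5, 5, 2 and 3 of them had an unadjusted p under 0.05, beside 16.3%, 14.4%, 4.36% and 6.19% of all genes. The median was -0.039 for NACET in old and 0.044 in young mice, beside 0.0020 and -0.0045 over all genes. Between old and young mice under NACET, 3 of 24 were called, all lower in old mice, where 4.88% of all genes were called in either direction. Cat, catalase, differed by -0.31 ± 0.075 (SE; adjusted p = 0.0256), at 19.9 ± 2.26 against 24.7 ± 1.84 CPM (SD, n = 6 each), and the call was lost without old NACET replicate 2 or 3 or with the replicate number as a block (0.0547), with adjusted p up to 0.0613. Aldh3a1, an aldehyde dehydrogenase abundant in cornea, differed by -3.34 ± 0.86 (adjusted p = 0.0353) and Ptgr1, a prostaglandin reductase, by -1.63 ± 0.43 (adjusted p = 0.0382).

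Aldh3a1 had an SD larger than its mean in 3 of the 4 groups: 3.90 ± 1.59 CPM in young controls, 39.4 ± 47.3 in young NACET, 45.6 ± 74.0 in old controls and 3.94 ± 3.95 in old NACET mice. Markers of corneal epithelium, a list of 10 that includes Aldh3a1, summed to 9.05 to 21.6 CPM in young controls, 8.01 to 526 in young NACET, 15.7 to 603 in old controls and 5.20 to 31.7 CPM in old NACET mice. Their part in the values of Aldh3a1 and Ptgr1 was not tested. The Aldh3a1 call was lost without young NACET replicate 4 or 5 or old NACET replicate 2, 3, 4, 5 or 6, and the Ptgr1 call without young NACET replicate 4 or 5 or old NACET replicate 1, 2, 4, 5 or 6. Both were lost with the replicate number as a block (adjusted p = 0.0745 and 0.0702) and Ptgr1 also in a fit of all 4 groups (0.0698), with adjusted p up to 0.0881 and 0.0839 over all alternatives.

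The genes whose log2 levels over 20 libraries were most like those of a member, by Pearson r and as a description only, were Slc25a17 (0.80), Ipo5 (0.74) and Gm15776 (0.73) for Nfe2l2, and Polr2f (0.80), Nudt18 (0.79) and Zfp580 (0.79) for Keap1. For Nqo1 they were 4930556M19Rik (0.81), St8sia4 (0.78) and Zfp160 (0.76). For Hmox1 they were Cryab (0.97), a small heat shock protein of lens and glia, Vim (0.96) and Vit (0.95). Without old NACET replicate 1 they were Gm11460 (0.79), Phf7 (0.78) and Calca (0.75), so that the likeness of Hmox1 to Cryab rested on that library.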

How the data were processed

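The authors sequenced polyA-selected, unstranded TruSeq libraries, per the labels and the study's methods, aligned single reads to mm9 with TopHat2 2.1.0 and counted exon reads with HTSeq 0.11.2 in intersection-nonempty mode, ignoring strand (versions from the submitters' processing notes). The annotation was not given in the sources used here. The deposited values are raw counts, 17.7 to 31.1 M per library. A row without a gene name (at most 0.00218% of counts) was left out.

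CPM were scaled by edgeR's TMM factors over 20 libraries. Tests used edgeR 4.0.16 (R 4.3.3), each comparison of 2 groups on those libraries alone and the interaction on all 20: filterByExpr, quasi-likelihood test, Benjamini-Hochberg over all genes tested. Intervals are 95%. DESeq2 1.42.0 was an alternative. The labels do not say whether mice share litters or cages. Scripts were tested on simulated data. Exon lengths and mm9 positions are from GENCODE. Promoters are from RefSeq (GRCm38.p6).

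The members and lists were chosen with earlier results of these data known. Named genes were the 10 members, the 3 genes most like Nfe2l2, Keap1, Nqo1 and Hmox1, and, of each list, called genes and up to 4 with the smallest p. No 2 libraries of a group agreed within sampling noise (chi-square per degree of freedom 2.52 to 32.2 over 42 pairs).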

Additional observations from a re-analysis of the deposited data

Results flagged for a closer look

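In old NACET replicate 1, Hmox1 was 40.3 CPM, and the other 5 old NACET libraries lay between 3.19 and 4.29 CPM: this library is far from the rest of its group. In young NACET replicate 2, Nqo1 was 1.57 CPM, on 27 counts, and the other 5 young NACET libraries lay between 3.08 and 3.67 CPM. These were the 2 of 40 groups of values (10 genes in 4 groups) with a library set apart by Dixon's test, and chance sets apart about 1 in 20. Causes were not tested.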

How the results depend on the processing

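The count of members called was 0 in 96 of 100 alternatives over the 5 comparisons, where DESeq2 gave Hmox1 no test in 3. The 4 others called Bach1 between old and young mice under NACET, a count of 1: with DESeq2, with all 4 groups in 1 fit, and without young NACET replicate 2 or old NACET replicate 3, so that leaving out single libraries gave 0 to 1 there. Of 996 log2 changes of members under alternatives, 912 kept their direction and side of the threshold, 3 had no test and 77 changed sign. Those 77 had an adjusted p of at least 0.770, and, Hmox1 in the interaction apart, the values they reversed were at most 0.14 in size.

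With the replicate number as a block, the changes of sign were 0.024 for Nfe2l2, 0.15 for Osgin1 (NACET in old), -0.11 for Nqo1 (NACET in young) and 0.0041 for Abcc1 (age under NACET). The numbers do not pair the mice: deviations of same-numbered libraries correlated at -0.157 to 0.123, and the library closest to a given one carried its own number for 0 of 4, 0 of 4, 0 of 4 and 2 of 6 libraries in the comparisons of 2 groups. The block called 163, 17, 2, 422 and 0 genes of all tested in the 5 comparisons, and no member. With labelled sex as a covariate and with labelled males only, values were -0.086 and -0.086 for Hmox1 and 0.13 and 0.13 for Osgin1 between controls, and -0.029 and -0.18 for Osgin1 in the interaction. Males only gave -0.17 for Nqo1, -0.0094 for G6pdx and 0.14 for Osgin1 for NACET in young, and -0.00050 for Bach1 in the interaction. The batch tag gave -0.095 for Me1, -0.080 for G6pdx, -0.025 for Pgd and 0.12 for Osgin1 for NACET in young. For NACET in old, 668-day mice alone and an age covariate gave 0.029 and 0.027 for Nfe2l2, -0.00029 and -0.0025 for Keap1, and -0.030 and -0.031 for G6pdx.

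Leaving out single libraries gave, between controls, -0.064 to 0.16 for Hmox1 and -0.40 to 0.14 for Osgin1. For NACET in old it gave -0.048 to 0.030 for Nfe2l2, -0.0069 to 0.067 for Keap1 and -0.22 to 0.23 for Osgin1. For NACET in young it gave -0.055 to 0.015 for Nfe2l2, -2.0e-05 to 0.049 for Keap1, -0.078 to 0.17 for Nqo1, -0.22 to 0.21 for Osgin1, -0.00045 to 0.090 for G6pdx, -0.016 to 0.049 for Pgd and -0.014 to 0.062 for Abcc1. For age under NACET it gave -0.26 to 0.031 for Osgin1 and -0.045 to 0.039 for Abcc1. In the interaction it gave -0.034 to 0.051 for Nfe2l2, -0.029 to 0.042 for Keap1, -0.24 to 0.30 for Osgin1, -0.025 to 0.066 for G6pdx and -0.0030 to 1.55 for Hmox1, the lowest without old NACET replicate 1. Causes were not tested.

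The count over all genes moved more: 69 to 706 between controls, 0 to 352 for NACET in old, 0 to 8 in young, 422 to 1262 for age under NACET and 0 to 82 in the interaction, with the highest of each from DESeq2 except in young mice, where it came without young control replicate 4. For NACET in old, the count was 0 among 668-day mice alone, where 2 mice were under NACET, and 1 with an age covariate. Leaving out single libraries gave 8 to 110 there, the lowest without old control replicate 2. The likeness by Spearman's rho was 0.71 for Nfe2l2 and Slc25a17, 0.71 for Keap1 and Polr2f, 0.86 for Nqo1 and 4930556M19Rik and 0.55 for Hmox1 and Cryab. With 10 to 42 counts of Osgin1 per library, counting error is largest for that gene.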
